A study of Homo sapiens with 6 samples.

Results

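MDA-MB-231, an established human triple-negative breast cancer line, was profiled by mRNA sequencing after stable knockdown of HMGA2, and the line carrying the hairpin shHMGA2-2 was compared with the line carrying the control hairpin shNC. The comparison used 4 of the 6 libraries of the study, 2 titled shHMGA2-2 and 2 titled shNC, chosen by their titles. The remaining 2 libraries, titled shHMGA2-1, carry another hairpin against the same gene and were used to find the genes that changed in shHMGA2-2 but not in shHMGA2-1. No further treatment, time point or genotype was given for any group. Per the study's methods, cells were infected with lentivirus under puromycin and each stable knockdown line was grown from a single clone, so the libraries of a group describe 1 clone and its difference from shNC cannot be told apart from other differences between clones. The library names call the shNC libraries WT and the shHMGA2-1 libraries SH2, and the titles were followed.

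HMGA2 is a small architectural chromatin protein that binds AT-rich DNA through its AT-hooks, bends it and helps other factors to assemble at promoters and enhancers. It is abundant in the embryo, low in most adult tissues and present again in many tumours, where it has been linked to migration and invasion. The paralogue HMGA1 has the same AT-hook structure. The comparison addresses which genes and pathways differ when HMGA2 is lowered in these cells.

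The 6 libraries held between 16461178 and 17167293 reads counted in genes, and 16110 of the 61806 genes in the table had enough reads to be tested. Levels are given as CPM, counts scaled to a common library size, after TMM scaling, which corrects for library composition. The floor of 3 counts corresponded to between 0.172 and 0.185 CPM per library on this scale, which covers counting error only. Nothing in the labels says that libraries of a group came from separate cultures, so the p-values measure the spread between these libraries, which may be technical. Of 14 genes known to be high in this kind of line, VIM, CD44 and CAV1 stood between 634 and 2300 CPM in shNC, whereas S100A4 (4.43 CPM), TGFBI (2.00 CPM) and SPARC (6 and 5 counts) were low. Of 10 genes known to be low, PGR and TFF1, markers of oestrogen receptor signalling, did not exceed 3 counts in any library. Other genes of that list were present in shNC, namely XBP1 (75.3 CPM), ERBB2 (70.8 CPM), KRT19 (12.5 CPM), EPCAM (8.40 CPM) and FOXA1 (6.28 CPM).

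HMGA2 (ENSG00000149948, chr12:65824460-65966291, + strand, GRCh38) had 2126 and 2161 counts in the shNC libraries. It had 858 and 989 in shHMGA2-1 and 435 and 482 in shHMGA2-2. All shHMGA2-2 libraries lay below all others. The mean level fell from 132 ± 1.57 CPM (SD, n = 2) to 26.7 ± 1.37 CPM, a log2 fold change of -2.31 (SE 0.09, edgeR quasi-likelihood test, adjusted p = 2.11e-16). Transcripts of both strands overlap HMGA2, among them RPSAP52 and HMGA2-AS1, and their reads could not be separated here because the strand setting of the counting is not given in the sources used here. MMP1, the interstitial collagenase, had 155 and 165 counts in shNC, compared with 53 and 53 in shHMGA2-1 and only 5 and 2 in shHMGA2-2, and fell by 5.54 on the log2 scale (SE 0.34, edgeR adjusted p = 7.2e-13). KAT6A, a histone acetyltransferase, had 1740 and 1730 counts in shNC against 1387 and 1205 in shHMGA2-2. Its log2 fold change of -0.50 (SE 0.09, edgeR adjusted p = 3.62e-05) was smaller than the 2-fold limit used below. MMP2 and MMP9, the gelatinases, had too few reads to be tested.

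A gene was called changed when its edgeR adjusted p was under 0.05 and its fold change was at least 2. By p alone, 9464 genes (58.7% of the 16110 tested) differed between shHMGA2-2 and shNC. With the fold limit 3432 genes (21.3%) were called, 1554 lower (9.65%) and 1878 higher (11.7%). Libraries of the groups did not overlap for 12850 genes (79.8%), so a lack of overlap by itself was common. By the same rule 1367 genes (8.49%) were called in shHMGA2-1 against shNC. The comparisons of both lines share the shNC libraries. Genes that fell took 10.6% of all counts in shNC and 3.84% in shHMGA2-2. Genes that rose took 1.10% of counts in shNC and 3.59% in shHMGA2-2, and their median level in the higher group was 3.58 CPM against 14.5 CPM for the genes that fell. In 582 called genes 1 group lay at or under the floor. For a gene with a group at 0, the fold is given as a lower limit against the floor, and for groups with a few counts the counts themselves are given.

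**Figure D1:**
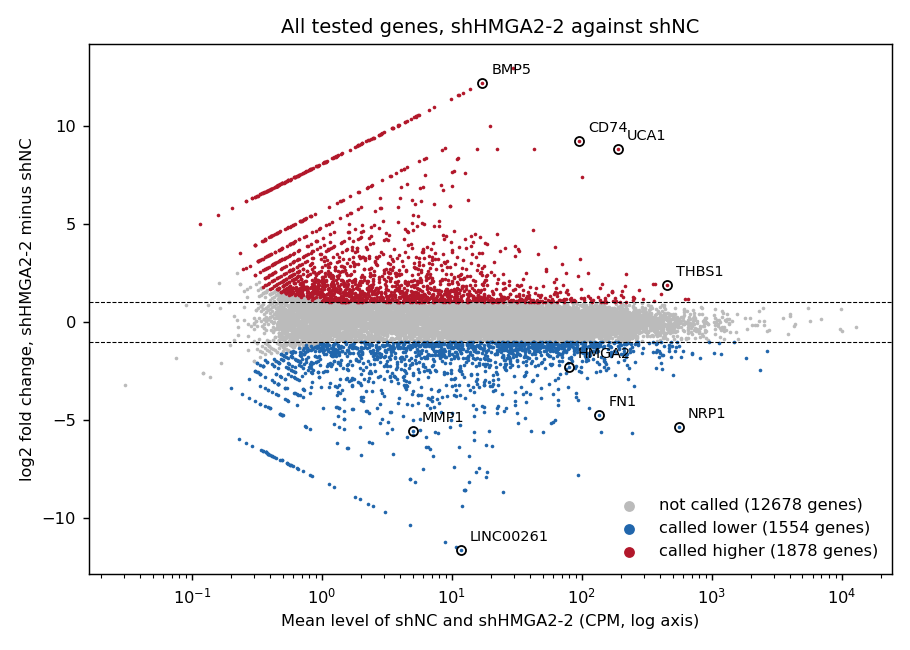
Each point is 1 of the 16110 tested genes, with its mean level in shNC and shHMGA2-2 (CPM, log axis) against its fitted log2 fold change. Blue points are the 1554 genes called lower and red points the 1878 called higher, the dashed lines mark 2-fold, and circles mark named genes. Straight diagonal rows at the edges are genes with few or no counts in 1 group, whose fitted fold depends on the fitting.

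Across the terms listed for description, called genes took large shares in some immune terms. These were MHC class II protein complex (88.9% of 9 tested, of 20 annotated), chemokine activity (70.0% of 10 tested, of 51 annotated) and cytokine activity (34 of 68 genes). Members such as HLA-DRA and CD74 had few or no counts outside shHMGA2-2. They passed the filter on low counts through that group alone, so their call was largely fixed by the filter. Shares were also large in matrix terms (collagen trimer 70.8%, extracellular matrix 50.4%) and in cholesterol biosynthetic process (61.3%). Among tested genes with any GO term 20.3% were called and among those with any KEGG term 20.1%. By place in the cell, the share was 36.2% of 883 genes for the extracellular region and 29.5% of 2590 for the plasma membrane. It was 20.5% for the endoplasmic reticulum and 19.8% for the Golgi apparatus, near the background. The cytosol (16.1%), nucleus (15.5%) and mitochondrion (12.7%) lay below it. Terms share genes and are not independent of each other. Some terms are also loosely annotated: KEGG Ribosome held 488 tested genes, of which 221 had the symbol of a ribosomal protein.

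**Figure D2:**
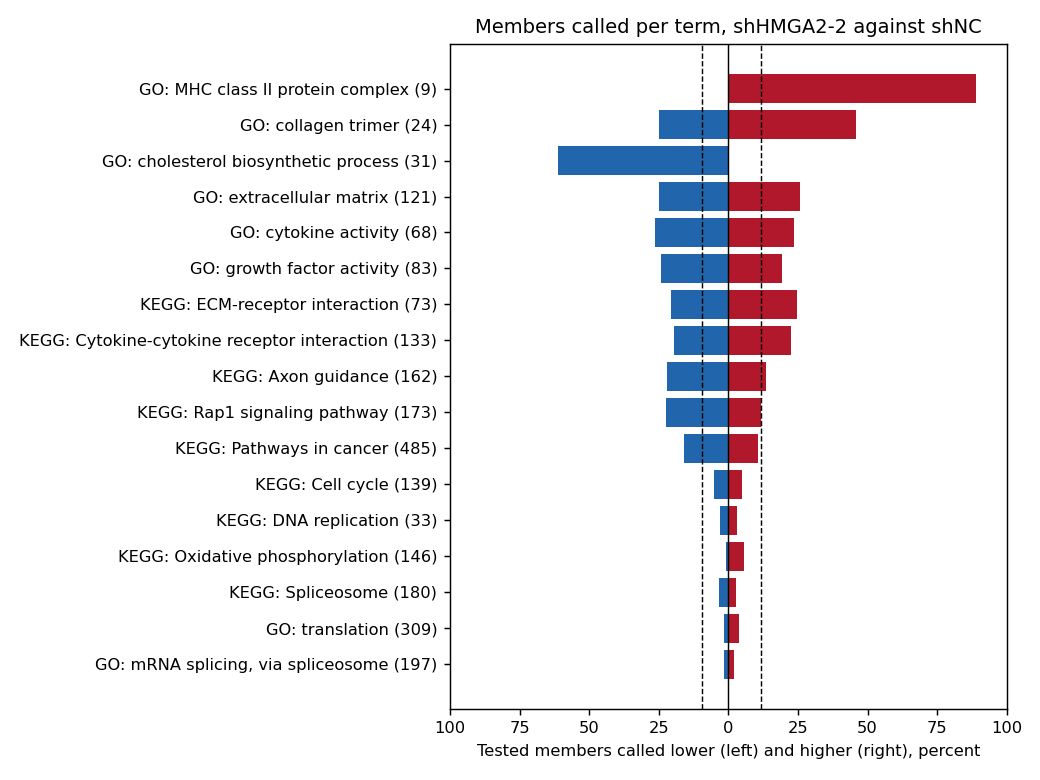
Bars give the percent of tested members called lower (blue, left) and higher (red, right) in 17 terms, with the number tested in brackets. Dashed lines mark the 9.65% and 11.7% of all tested genes. The bar of cholesterol biosynthetic process extends to the left only, that of the MHC class II protein complex to the right only, and most other matrix and signalling terms extend both ways.

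Genes of sterol synthesis fell together. Cells make cholesterol from acetyl-CoA through mevalonate, farnesyl diphosphate and squalene, and the transcription factor SREBP-2 raises these genes when sterols are scarce. Of 20 listed genes of this route and its control, 18 were called lower and none higher, against 9.65% lower among all genes, with a median log2 fold change of -1.42 beside 0.03 over all tested genes. The summed level of the list was between 2770 and 2790 CPM in shNC, between 2190 and 2200 CPM in shHMGA2-1 and between 912 and 929 CPM in shHMGA2-2. In shHMGA2-1 the median was -0.34 and no listed gene was called. All 20 genes had an edgeR adjusted p under 0.05 in shHMGA2-2, and the pair not called, PMVK and SC5D, both had a log2 fold change of -0.61.

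MSMO1, a methylsterol demethylating enzyme, had the largest change of the list. It had 3248 and 2998 counts in shNC, then 1956 and 2173 in shHMGA2-1 and 443 and 473 in shHMGA2-2. Both shHMGA2-2 libraries were far below the others, and the level fell from 192 ± 10.8 to 26.7 ± 0.669 CPM (SD, n = 2; log2 fold change -2.85, SE 0.09, edgeR adjusted p = 1.48e-18). INSIG1, which holds the SREBP machinery in the endoplasmic reticulum, had 2419 and 2445 counts in shNC, against 1488 and 1740 in shHMGA2-1 and 497 and 513 in shHMGA2-2, a log2 fold change of -2.35. HSD17B7, a reductase of the later steps, changed by -2.25. Other members were looked up for their place in the route after their values were seen. MVK, mevalonate kinase, changed by -1.03. FDFT1 and SQLE, which make and oxidise squalene, changed by -1.90 and -1.71. SREBF2, which encodes SREBP-2, changed by -1.54. FDPS, which makes farnesyl diphosphate, had 4140 and 3958 counts in shNC, compared with 4405 and 4173 in shHMGA2-1 and 1443 and 1516 in shHMGA2-2. By the rule below, FDPS changed in shHMGA2-2 but not in shHMGA2-1.

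The same direction was seen in the annotation. GO cholesterol biosynthetic process had 19 of 31 tested members lower and none higher (61.3%; 3.23% in shHMGA2-1). KEGG Steroid biosynthesis had 12 of 21 lower and Terpenoid backbone biosynthesis 6 of 23, with none higher in either.

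Promoters of the sterol list were searched for the sterol regulatory element TCACNCCA, the sequence SREBP-2 binds, in the 250 bases before each gene's start on both strands (RefSeq, GRCh38.p14). Of 15 listed genes with a promoter in the RefSeq set, 3 held it, and 866 of all 27305 promoters (3.17%) did. Of the 13 called genes with a promoter, all lower, 3 held the element and the others did not. These 3 are shown with the element in capitals. Since nearly all listed genes fell, the fall of these 3 does not tie the element to it.
MSMO1, chr4:165327473-165327560, + strand: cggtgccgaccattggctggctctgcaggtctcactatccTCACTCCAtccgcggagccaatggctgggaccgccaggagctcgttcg
MVK, chr12:109573559-109573646, + strand: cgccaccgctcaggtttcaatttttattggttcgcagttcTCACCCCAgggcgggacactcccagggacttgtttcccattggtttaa
SREBF2, chr22:41832932-41833019, + strand: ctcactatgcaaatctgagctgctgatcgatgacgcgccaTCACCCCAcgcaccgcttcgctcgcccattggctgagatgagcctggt
A match describes the letters only, and a promoter without it may hold a variant of the element.

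Other lipid genes moved in both directions. KEGG Fatty acid metabolism had 9 lower and 5 higher of 53 tested (26.4%), and GO lipid metabolic process, at 23.8%, was near the background. SCD, which makes monounsaturated fatty acids, had 11362 and 11399 counts in shNC, then 10729 and 10951 in shHMGA2-1 and 2170 and 2341 in shHMGA2-2. The shHMGA2-2 libraries stood apart, with a fall from 700 to 131 CPM (log2 fold change -2.42). FADS2, the delta-6 desaturase, changed by -1.65 and FASN, the fatty acid synthase, by -1.13. CPT1C, a carnitine palmitoyltransferase best known from brain, went the other way, from 0 and 1 counts in shNC and 0 and 2 in shHMGA2-1 to 202 and 233. KEGG PPAR signaling had 16 lower and 7 higher of 53. PPARG, the nuclear receptor of fat cell formation, fell by 3.34 on the log2 scale in shHMGA2-2 with a log2 fold change of -3.89 in shHMGA2-1. KEGG Ferroptosis, an iron-dependent death by lipid peroxidation, had 10 lower and 4 higher of 45. Its member SLC7A11, the cystine transporter, fell from 459 to 47.1 CPM (-3.29; shHMGA2-1 -2.01), and FTL, the ferritin light chain, from 2860 to 807 CPM (-1.82; shHMGA2-1 -1.15). GO iron ion homeostasis, chosen for description by its share of called genes, had 8 lower and 4 higher of 20. TXNRD1, a selenoprotein reductase of the antioxidant defence, fell from 1558 to 522 CPM.

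Matrix and adhesion genes changed often and in both directions. GO extracellular matrix had 30 lower and 31 higher of 121 tested (50.4% called, against 21.3% of all genes), and 33.1% were called in shHMGA2-1. Many of these genes are low: 26 were called among genes with a mean FPKM of 1 or more, where 1729 of all 12036 tested genes were called. With limma on log2(FPKM + 1) 24 were called, where 1226 of all 16110 were. The extracellular matrix structural constituents had 11 lower and 14 higher of 48, the collagen trimer 6 and 11 of 24, the basement membrane 15 and 15 of 61, and KEGG ECM-receptor interaction 15 and 18 of 73. GO cell adhesion had 49 lower and 68 higher of 288. Of these, 28 of the 68 that rose and 11 of the 49 that fell changed in shHMGA2-2 but not in shHMGA2-1. Over all tested genes the same rule took 37.2% of those called higher and 29.5% of those called lower.

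Among the matrix genes that fell, FN1, fibronectin, had 4187 and 4377 counts in shNC, against 321 and 293 in shHMGA2-1 and 177 and 162 in shHMGA2-2. Both knockdown lines were low, and the fall in shHMGA2-2 was 4.74 on the log2 scale (SE 0.10, edgeR adjusted p = 4.93e-22). LAMA5, a laminin chain of basement membranes, fell in shHMGA2-2 and was slightly higher in shHMGA2-1. It had 1867 and 2033 counts in shNC, compared with 3102 and 2313 in shHMGA2-1 and 163 and 217 in shHMGA2-2. ADAMTS1, a secreted metalloprotease that cuts proteoglycans, fell from 112 to 3.11 CPM. CCBE1, a matrix protein needed for lymphatic vessels, fell from 117 to 3.43 CPM. EDIL3, an integrin ligand, fell from 216 to 10.2 CPM and ESAM, an immunoglobulin-type adhesion molecule of endothelium and platelets, from 175 to 11.0 CPM. GJA1, the gap junction protein connexin 43, had 1049 and 992 counts in shNC, then 520 and 582 in shHMGA2-1 and 30 and 31 in shHMGA2-2.

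The collagen VI chains COL6A1, COL6A2 and COL6A3 rose. COL6A3 had 4 and 1 counts in shNC, against 4 and 5 in shHMGA2-1 and 350 and 339 in shHMGA2-2, so that only the shHMGA2-2 libraries held more than a few reads. COL6A2 rose from 2.34 to 26.2 CPM (log2 fold change 3.48) and was also higher in shHMGA2-1 (2.64), and COL6A1 rose from 12.7 to 58.2 CPM (2.19). COL11A2, a chain of a cartilage collagen, rose from 13 and 13 counts to 331 and 356 (4.63), with 26 and 33 in shHMGA2-1. THBS1 and THBS2, related matrix glycoproteins, went opposite ways. THBS1 had 3072 and 3086 counts in shNC, compared with 1486 and 1353 in shHMGA2-1 and 12097 and 12310 in shHMGA2-2, a log2 fold change of 1.91 in shHMGA2-2 and -1.20 in shHMGA2-1. THBS2 had 278 and 296 counts in shNC and 498 and 465 in shHMGA2-1 but 0 and 0 in shHMGA2-2, at least 101-fold lower than shNC. SDC4, a heparan sulfate proteoglycan of focal adhesions, rose from 146 to 556 CPM.

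Some receptors and motor proteins of the cell edge showed large shifts. KEGG Focal adhesion had 41 lower and 33 higher of 233 (31.8% called, against 21.3% of all genes). KEGG terms of the cytoskeleton and junctions lay nearer that share, namely Regulation of actin cytoskeleton (26.2%), Adherens junction (24.3%) and Tight junction (20.8%). KEGG Gap junction had 9 lower and 9 higher of 72. GO bicellular tight junction (31.0%) and desmosome (8 of 17 genes called) stood higher. ITGB1, the beta-1 integrin chain that pairs with most matrix-binding alpha chains, had 63173 and 63367 counts in shNC, then 55022 and 59194 in shHMGA2-1 and 24765 and 23615 in shHMGA2-2. It was the gene with the largest loss of CPM after MT-RNR1, a mitochondrial ribosomal RNA, and its level fell from 3894 to 1409 CPM (-1.47), close to the median change of its neighbours on chromosome 10, given below. FLNA, filamin A, had a log2 fold change of -1.01 and lost its call when 1 shNC library was left out (-0.99 without shNC replicate 2) or with upper quartile scaling (-0.90). Of the non-muscle myosin heavy chains, MYH10 and MYH14 rose and MYH9 was not called (-0.29). MYH10 had 16 and 22 counts in shNC, against 72 and 100 in shHMGA2-1 and 3485 and 3415 in shHMGA2-2 (7.42), and MYH14 had 0 and 0, 3 and 0, and 191 and 187, at least 59.6-fold higher than shNC.

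Among guidance genes more were called lower than higher. KEGG Axon guidance had 36 lower and 22 higher of 162 (35.8%) and Rap1 signaling 39 and 20 of 173. NRP1, a co-receptor for semaphorins and VEGF, had 17470 and 18094 counts in shNC, compared with 4310 and 4517 in shHMGA2-1 and 483 and 430 in shHMGA2-2. The 3 groups stood well apart, and the fall in shHMGA2-2 was 5.36 on the log2 scale (SE 0.08, edgeR adjusted p = 2.58e-24) against 2.09 in shHMGA2-1. The laminin-related guidance ligand NTN4 had 1559 and 1652 counts in shNC, then 1904 and 2078 in shHMGA2-1 and 25 and 44 in shHMGA2-2. PLXNA2, a semaphorin receptor, changed by -4.90 and was somewhat higher in shHMGA2-1 (0.57).

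Among ligands, GO growth factor activity had 20 lower and 16 higher of 83 and cytokine activity 18 and 16 of 68. FGF5, a fibroblast growth factor, had 7639 and 7826 counts in shNC, against 8292 and 9868 in shHMGA2-1 and 169 and 151 in shHMGA2-2, a fall from 476 ± 8.31 to 9.32 ± 0.939 CPM (SD, n = 2; -5.67, SE 0.10, edgeR adjusted p = 8.15e-23). The Wnt ligands WNT7B (577 and 625 counts to 4 and 2) and WNT5A (265 and 250 to 9 and 13) fell, and WNT5A had 248 and 301 counts in shHMGA2-1. IL11, a cytokine of the IL-6 family, had 547 and 496 counts in shNC, compared with 86 and 77 in shHMGA2-1 and 0 and 6 in shHMGA2-2. INHBB, an activin chain, had 352 and 386 counts in shNC, rose to 1657 and 1586 in shHMGA2-1 and fell to 11 and 9 in shHMGA2-2. BMP5, a bone morphogenetic protein, was at 0 in all other libraries and had 599 and 578 counts in shHMGA2-2, at least 186-fold higher. ID2, an inhibitor of helix-loop-helix factors, rose from 0.462 to 14.0 CPM. DUSP4, a phosphatase that switches off MAP kinases, fell from 4446 and 4573 counts to 96 and 98, with 2524 and 2110 in shHMGA2-1. EGFR, the epidermal growth factor receptor, fell from 558 to 191 CPM. KEGG Pathways in cancer as a whole had 77 lower and 52 higher of 485 (26.6%).

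Genes of MHC class II antigen presentation rose. These molecules show peptides to helper T cells and are normally made by professional antigen-presenting cells or after interferon gamma. Of 20 annotated members of the GO complex 9 were tested, and of these 8 were called higher and none lower. Among the 8, 5 changed in shHMGA2-2 but not in shHMGA2-1, beside 37.2% of all genes called higher. With the filter at a mean FPKM of 1, which also gave the smaller total over all genes stated above, 4 were called. HLA-DRA had 6 and 0 counts in shNC, then 1 and 4 in shHMGA2-1 and 1475 and 1494 in shHMGA2-2. CD74, the invariant chain that guards the peptide groove, had 6 and 4, 0 and 1, and 3134 and 3449 counts. HLA-DPA1 had 0 and 1, 12 and 12, and 686 and 660 counts, and its neighbour HLA-DPB1, whose span overlaps it on the opposite strand, had 0 and 0, 8 and 3, and 334 and 346. In each of these genes only the shHMGA2-2 libraries were high. HLA-DRA, CD74 and HLA-DPB1 entered the test through those libraries alone, so their call was largely fixed by the filter. Of 20 leukocyte markers 14, with PTPRC (CD45), CD3E, MS4A1 and SPI1 among them, stayed at or under 3 counts in every library. The summed level of the list was between 8.80 and 10.6 CPM in shNC and between 2.52 and 3.07 CPM in shHMGA2-2, most of it in shNC from LCP1, which fell (130 and 107 counts to 3 and 11). CORO1A had 7 and 10 counts in shNC, then 38 and 70 in shHMGA2-1 and 17 and 20 in shHMGA2-2, where it was not called (log2 fold change 1.03, edgeR adjusted p = 0.0804), and ITGAM, too low to be tested, had 0 and 2, 1 and 1, and 16 and 5. Among KEGG terms with 20 to 500 tested genes, Malaria had the largest share of called genes (13 lower and 8 higher of 27). Intestinal immune network for IgA production (2 and 13 of 23) and Staphylococcus aureus infection (4 and 19 of 36) followed. These terms were chosen by their shares and are given as a description.

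Interferon-stimulated genes rose in part. Of 22 listed genes 11 were called higher and 1 lower (IFI44L), beside 11.7% higher and 9.65% lower of all tested genes. Among the 11, 5 rose in shHMGA2-2 but not in shHMGA2-1, namely BST2, IFI27, OAS1, RSAD2 and XAF1. Over all genes called higher 37.2% met that rule. BST2, which tethers budding virus to the cell, had 0 and 3 counts in shNC, against 9 and 3 in shHMGA2-1 and 338 and 345 in shHMGA2-2. IFI27 had 16 and 18, 22 and 17, and 176 and 172 counts. RSAD2, viperin, had 2 and 1, 4 and 2, and 107 and 86. Other members were already higher in shHMGA2-1: MX1, an antiviral GTPase, had 23 and 24 counts in shNC, compared with 159 and 125 in shHMGA2-1 and 223 and 216 in shHMGA2-2. The abundant members IFIT1, IFIT2 and IFIT3 were not called, with log2 fold changes of 0.29, -0.04 and -0.28. The summed level of the list was between 562 and 565 CPM in shNC, between 754 and 760 CPM in shHMGA2-1 and between 706 and 717 CPM in shHMGA2-2. The filter at a mean FPKM of 1 left 6 called members and limma on log2(FPKM + 1) 7, beside the smaller totals over all genes stated above.

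The interferon-stimulated response element TTCNNTTTC was searched in the same way. It was found in 11 of 15 listed genes with a promoter in the table, and in 1931 of all 27305 promoters (7.07%). Among the 9 called genes with a promoter 6 held it, IFI44L, which fell, included. Promoters of 2 genes changed in shHMGA2-2 but not in shHMGA2-1 (BST2, IFI27), of a called gene that was also higher in shHMGA2-1 (ISG15) and of a gene that was not called (IFIT1) are shown, with matches on either strand in capitals.
BST2, chr19:17405706-17405800, - strand: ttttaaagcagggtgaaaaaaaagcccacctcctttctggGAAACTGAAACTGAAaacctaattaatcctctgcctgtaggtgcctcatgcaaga
IFI27, chr14:94110589-94110689, + strand: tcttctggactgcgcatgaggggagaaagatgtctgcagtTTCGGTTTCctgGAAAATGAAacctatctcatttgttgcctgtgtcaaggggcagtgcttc
ISG15, chr1:1013344-1013444, + strand: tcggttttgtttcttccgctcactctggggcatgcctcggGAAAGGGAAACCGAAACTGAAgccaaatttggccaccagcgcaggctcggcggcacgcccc
IFIT1, chr10:89392468-89392569, + strand: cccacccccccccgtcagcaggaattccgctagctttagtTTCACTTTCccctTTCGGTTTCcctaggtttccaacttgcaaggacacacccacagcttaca
The element was present in called and uncalled genes alike, and overlapping matches were merged into 1 run of capitals.

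The listed cytokines and feedback genes of NF-kB split by gene. Of 14 tested members 8 were called higher and 3 lower, and the summed level rose from between 348 and 351 CPM in shNC to between 971 and 1030 CPM in shHMGA2-2, while it was between 354 and 387 CPM in shHMGA2-1. CXCL8, a neutrophil chemokine, had 775 and 757 counts in shNC, then 168 and 241 in shHMGA2-1 and 2529 and 2669 in shHMGA2-2. The lines moved in opposite directions, by 1.68 and -1.98 on the log2 scale. CXCL1 rose from 8.99 to 35.8 CPM (1.99) and CXCL2 from 12.7 to 28.0 CPM (1.14). CCL2 was at 0 in the other libraries and had 10 and 15 counts, at least 3.93-fold higher. The feedback inhibitors NFKBIA and TNFAIP3 rose by 1.51 and 1.32, and BIRC3, an inhibitor of apoptosis that NF-kB induces, rose from 2525 and 2411 counts to 10396 and 9646 (1.94). CSF2 rose from 2.22 to 6.84 CPM. IL6 (117 and 93 counts to 28 and 37), IL1B (20 and 23 to 5 and 5) and CSF3 (29 and 14 to 3 and 1) fell. Under both of those alternatives, with their smaller totals over all genes, 7 members of this list were called.

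The NF-kB site GGNNTTTCC was found in 10 of 13 listed genes with a promoter in the table and in 1500 of all 27305 promoters (5.49%). Of the 9 called genes with a promoter 7 held it. Promoters of the chemokine pair and a feedback inhibitor that rose, and of IL6, which fell, are shown with the site in capitals.
CXCL1, chr4:73869275-73869388, + strand: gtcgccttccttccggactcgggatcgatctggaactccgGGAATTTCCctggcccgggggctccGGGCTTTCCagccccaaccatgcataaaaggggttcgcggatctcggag
CXCL2, chr4:74099200-74099312, - strand: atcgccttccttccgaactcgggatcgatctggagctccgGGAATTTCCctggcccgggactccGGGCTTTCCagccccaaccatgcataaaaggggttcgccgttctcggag
TNFAIP3, chr6:137867152-137867252, + strand: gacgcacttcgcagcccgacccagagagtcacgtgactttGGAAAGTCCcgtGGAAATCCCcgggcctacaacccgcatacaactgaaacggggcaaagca
IL6, chr7:22727088-22727176, + strand: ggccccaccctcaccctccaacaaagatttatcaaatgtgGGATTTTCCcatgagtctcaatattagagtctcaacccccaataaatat
CXCL3 and ICAM1 were tested and held the site without being called, so the match was not limited to called members. CCL20 also held it but had too few reads to be tested.

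Other immune signalling terms differed in their share of called genes. KEGG Cytokine-cytokine receptor interaction had 26 lower and 30 higher of 133 (42.1%). GO inflammatory response had 33 lower and 38 higher of 189 (37.6%) and innate immune response 22 and 52 of 270 (27.4%). GO defense response to virus (8 and 27 of 148, 23.6%), KEGG NOD-like receptor signaling (22.9%) and KEGG Chemokine signaling (22.6%) were near the 21.3% of all tested genes. IL24, a cytokine of the IL-10 family, had 18 and 36 counts in shNC, against 6 and 2 in shHMGA2-1 and 506 and 446 in shHMGA2-2. TLR4, the lipopolysaccharide receptor, fell from 42.6 to 1.69 CPM, and it also fell in shHMGA2-1 (4.70 CPM). C3, the central complement component, had 9 and 20 counts in shNC and 253 and 320 in shHMGA2-2.

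The machinery of growth changed little by comparison. None of 20 mitosis genes, none of 20 DNA replication genes and none of 7 genes of the KAT6A complex was called by edgeR, with log2 fold changes from -0.60 to 0.98, from -0.46 to 0.65 and from -0.50 to 0.71. By DESeq2 none was called either. At an unadjusted p under 0.05, 15, 15 and 5 of them differed, so small shifts were measured, and with upper quartile scaling 2 mitosis genes passed 2-fold. KEGG Cell cycle had 7 lower and 7 higher of 139 (10.1%), Oxidative phosphorylation 6.16%, Spliceosome 6.11% and RNA transport 5.83%. GO translation stood at 5.50%, mRNA splicing at 3.55% and rRNA processing at 3.45%. KEGG Proteasome had 5 higher and none lower of 50, and the 3 with enough reads to be named, PSMD6, PSMC2 and SEM1, all lay close to 2-fold (1.13, 1.01 and 1.00 on the log2 scale). DESeq2 placed SEM1 just under the limit and called 3 members of the term.

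The counts of the remaining lists stand beside 9.65% lower and 11.7% higher among all tested genes, and most of these lists are short. Among epithelial markers 9 were called higher and 2 lower of 15 tested, and the summed level was between 387 and 388 CPM in shNC and between 517 and 543 CPM in shHMGA2-2. DSP, a desmosome protein, rose from 22.3 to 79.2 CPM, KRT8, a simple-epithelium keratin, from 79.2 to 188 CPM, and PKP3 from 7.82 to 20.1 CPM, while KRT19 and CLDN4 fell. CDH1, E-cadherin, did not pass 4 counts in any library and was not tested. Among mesenchymal markers 4 were lower and 5 higher of 13. ZEB1 and ZEB2, repressors of epithelial genes, changed by -1.50 and -1.28, and SNAI2, a related repressor, by 2.06. VIM stayed close to its shNC level (-0.17), and the summed level of the list was between 3030 and 3110 CPM in shNC against between 2450 and 2490 CPM in shHMGA2-2. Endothelial markers had 3 called lower and none higher of 6, and melanocyte markers 1 lower of 3. Neuronal markers had 4 called higher (MAP2, SYP, SNAP25 and SYT1) and none lower of 5, all at low levels. The summed level of the neuronal list was between 11.3 and 11.9 CPM in shNC and between 21.6 and 21.9 CPM in shHMGA2-2. Its remaining tested member, TUBB3, fell by less than 2-fold (7.20 to 4.59 CPM, log2 fold change -0.65). Of the endothelial markers ERG, TEK and VWF did not exceed the floor in any library, and neither did NEFL, GAP43 and STMN2 of the neuronal ones. The list of genes high in this kind of line had 2 lower and 3 higher of 13, and that of low genes 2 lower and 1 higher of 6. In the latter GATA3, a luminal transcription factor, rose from 58 and 41 counts to 262 and 318, while FOXA1, another, fell from 110 and 94 to 5 and 1.

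Of the 10 HMG chromatin proteins 3 fell and 1 rose. HMGA1 had 20319 and 21184 counts in shNC, compared with 12283 and 10955 in shHMGA2-1 and 6228 and 6192 in shHMGA2-2, a stepwise order of the groups with a fall of 1.82 on the log2 scale in shHMGA2-2. HMGN5 fell by 1.51 and HMGN2 rose by 1.17, both nucleosome-binding proteins. HMGA1 and HMGN2 have many processed copies in the genome, so their counts are uncertain to that extent. In the let-7 and oncofetal list IGF2BP2, an RNA-binding protein, fell from 340 to 133 CPM and IGF2, a fetal growth factor, rose from 0 and 0 counts to 41 and 51, at least 14.5-fold, 1 each way of 4 tested. YAP and TEAD targets had 2 called lower and none higher of 13 (15.4%, below the 21.3% of all tested genes). These were ANKRD1 (657 to 155 CPM) and TGFB2 (109 to 52.5 CPM), with the canonical targets CCN1 and CCN2 at -0.39 and -0.11. Smaller falls were common in the list, with a median log2 fold change of -0.66 and 9 members at an edgeR adjusted p under 0.05. Its summed level was between 6680 and 6780 CPM in shNC and between 4460 and 4500 CPM in shHMGA2-2. In shHMGA2-1 it was between 6940 and 7100 CPM. Hypoxia genes had 1 lower and 3 higher of 13, and the glucose transporter SLC2A1 rose from 150 to 352 CPM. In shHMGA2-1 4 of the 13 were called, and the median log2 fold change was larger there (0.82) than in shHMGA2-2 (0.44). The summed level of the list was between 870 and 879 CPM in shNC and between 1120 and 1130 CPM in shHMGA2-2. In shHMGA2-1 it was between 1330 and 1380 CPM. Targets of p53 had 1 lower and 1 higher of 13 (also 15.4%), ZMAT3 (-1.79) and BTG2 (1 and 1 counts to 139 and 140).

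The genes that changed in shHMGA2-2 but not in shHMGA2-1 were taken as those called against shNC, with an adjusted p of at least 0.05 in shHMGA2-1 against shNC, and also called in the same direction in shHMGA2-2 against shHMGA2-1. The direct contrast, which called 2432 genes (15.1%), tests the difference between the lines and shares the shHMGA2-2 libraries with the first. By this rule 1156 genes (7.18%) changed, 458 lower (2.84%) and 698 higher (4.33%). They made up 29.5% of the genes that fell and 37.2% of those that rose. Another 342 lower and 542 higher genes were called in the same direction in both lines, 35 and 44 were called in opposite directions, and 719 and 594 met neither rule. The rule rests in part on a p that missed its threshold, which does not show that a gene stayed the same in shHMGA2-1.

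Among those that rose, the long noncoding RNA UCA1 (ENSG00000214049, chr19:15828206-15836328), known from bladder and breast tumours, had the largest gain in CPM. It had 16 and 11 counts in shNC, then 26 and 21 in shHMGA2-1 and 6192 and 6850 in shHMGA2-2, a rise from 0.831 ± 0.217 to 379 ± 19.0 CPM (SD, n = 2; 8.82, SE 0.14, edgeR adjusted p = 2.58e-24). UBA1, the main ubiquitin-activating enzyme, rose from 217 to 594 CPM (1.45). By fold, the noncoding LINC02474 led, at 0 in the other 4 libraries and 998 and 1022 counts in shHMGA2-2, at least 318-fold higher than shNC. BMP5, described above, followed. GSPT2, a translation termination factor without introns that closely resembles GSPT1, had 466 and 480 counts (at least 149-fold), and ZNF558, a zinc finger gene, 433 and 412 (at least 133-fold). IGHV3-15, an immunoglobulin variable segment with close relatives, had 390 and 395 counts (at least 124-fold), ZBED10P 355 and 419, GALNT14, a mucin-type glycosyltransferase, 267 and 238 (at least 79.7-fold) and LRRC61 229 and 230. All of these were at 0 in shNC and in shHMGA2-1. ZBED10P and LRRC61 overlap each other, so their reads could not be separated.

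Among those that fell, the noncoding LINC00261 had 374 and 388 counts in shNC, against 439 and 449 in shHMGA2-1 and 0 and 0 in shHMGA2-2, at least 134-fold lower than shNC. FOXA2, a forkhead factor whose gene lies beside it on chromosome 20, had 772 and 847, 692 and 661, and 4 and 0 counts, and missed the rule because its small change in shHMGA2-1 (-0.34) passed the p threshold. PIK3CG, the gamma catalytic subunit of phosphoinositide 3-kinase, had 415 and 371, 348 and 334, and 1 and 0 counts. AMPH, amphiphysin, an endocytic membrane-bending protein, had 375 and 432, 339 and 379, and 0 and 2. Both groups other than shHMGA2-2 stayed at similar levels in each of these genes. RASEF (205 and 258 counts to 3 and 1), LINC01139 (384 and 347 to 6 and 3), SEL1L3 (563 and 609 to 6 and 10) and the zinc finger factor ZNF521 (474 and 474 to 6 and 9) followed, together with FGF5. SCD met the rule with an adjusted p of 0.0549 in shHMGA2-1, close to its limit.

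**Figure D3:**
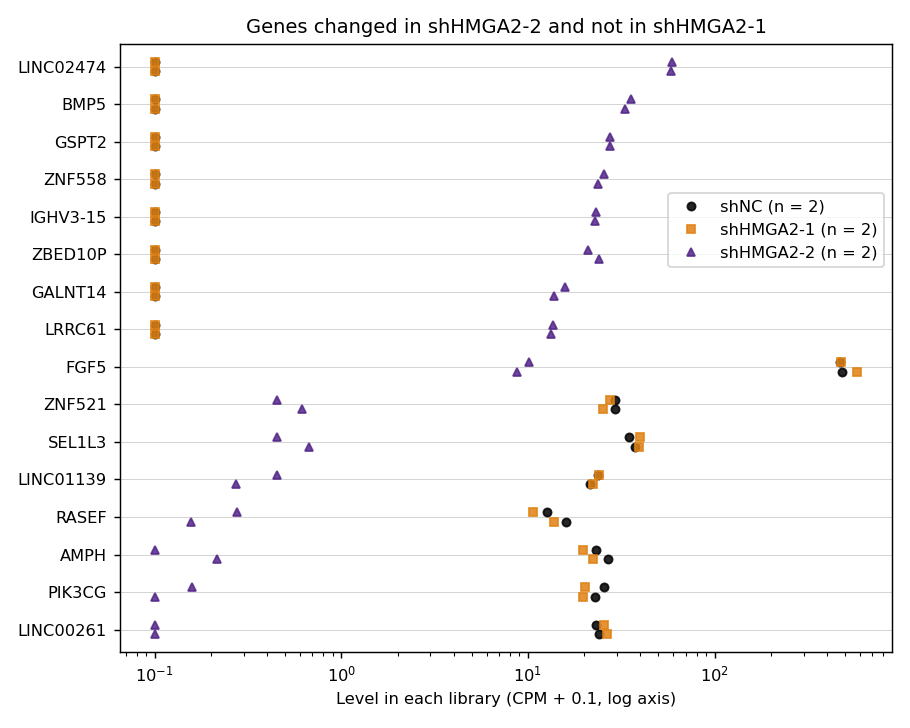
Points are the level of each library (CPM + 0.1, log axis) for the 8 genes with the largest rise and the 8 with the largest fall among those changed in shHMGA2-2 but not in shHMGA2-1. In the upper 8 rows shNC and shHMGA2-1 lie on the left edge at 0 counts and only the shHMGA2-2 triangles are to the right; in the lower 8 rows the triangles are alone on the left.

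Of the other genes with a large fall, several were lower in both lines. TMEM156 had 436 and 447 counts in shNC, compared with 94 and 105 in shHMGA2-1 and 1 and 2 in shHMGA2-2. KCNQ3, a potassium channel subunit, had 396 and 420, 77 and 53, and 2 and 0. SLAMF7, a surface receptor known from plasma cells, had 391 and 432, 156 and 147, and 2 and 0. NRK, a kinase of the placenta, had 344 and 353, 220 and 245, and 0 and 0, at least 123-fold lower in shHMGA2-2 than in shNC. HS6ST2, a heparan sulfate sulfotransferase, was instead somewhat higher in shHMGA2-1, with 564 and 627 counts in shNC, then 732 and 845 in shHMGA2-1 and 2 and 3 in shHMGA2-2. Among the abundant genes that rose, BIRC2, the neighbour of BIRC3 on chromosome 11, rose in both lines (1.18 in shHMGA2-2 and 1.13 in shHMGA2-1), and the adhesion receptor ADGRG6 rose from 67.8 to 369 CPM.

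Changes were not spread evenly over the chromosomes, a pattern that was looked for after the data were seen. When the tested genes were put in 321 blocks of 46 to 53 neighbours, the median log2 fold change was -0.5 or lower in 14 blocks and 0.5 or higher in 20, against 2 and 0 blocks in shHMGA2-1. The lowest lay on chromosome 10 between positions 23095579 and 35127006, from MSRB2 to CUL2, where 35 of 51 genes were called lower and 4 higher, with a median of -1.48 (shHMGA2-1 -0.42). NRP1, ITGB1, KIF5B and ZEB1 lie in this stretch. The log2 fold change of ITGB1 was 0.01 from the median of its neighbours and that of KIF5B, a kinesin motor, -0.17, whereas NRP1 was 3.88 lower. On the short arm of chromosome 1, the blocks from WASH7P to GPATCH3 had medians between 0.59 and 0.82. Further along that arm, the blocks from TFAP2E to MKNK1 had medians between 0.66 and 0.70. From TXNIP to the end of chromosome 1 all medians were negative, down to -0.75. Blocks of similar height lay on chromosome X (RPGR to ENSG00000204620, 0.75) and chromosome 9 (SURF6 to TMEM141, 0.70). Chromosome 10 had the largest share of genes called lower (20.1%) and chromosome 19 the largest share called higher (16.2%), beside 9.65% and 11.7% of all tested genes. HMGA2 itself stayed 1.99 below the median of its neighbours. Of the genes called lower 80.1% kept at least a 2-fold difference when the median of their block was subtracted, and of those called higher 82.0%. The corresponding shares were 83.2% and 89.4% for the genes changed in shHMGA2-2 but not in shHMGA2-1. Most blocks had a median smaller than 0.5 in size, so little was subtracted for most genes. These shares therefore do not describe genes inside the shifted blocks, or stretches shorter than a block. Copy number of these stretches was not analysed here, and a difference in it between the single clones cannot be told apart from other differences between the lines. This bears on ITGB1, KIF5B and ZEB1 (-1.50), whose changes were close to the median of their stretch. It also bears on genes in the raised blocks, such as ISG15 (1.22) in the block from WASH7P to ATAD3A, with a median of 0.64. Other named genes in shifted blocks carry the same limit.

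**Figure D4:**
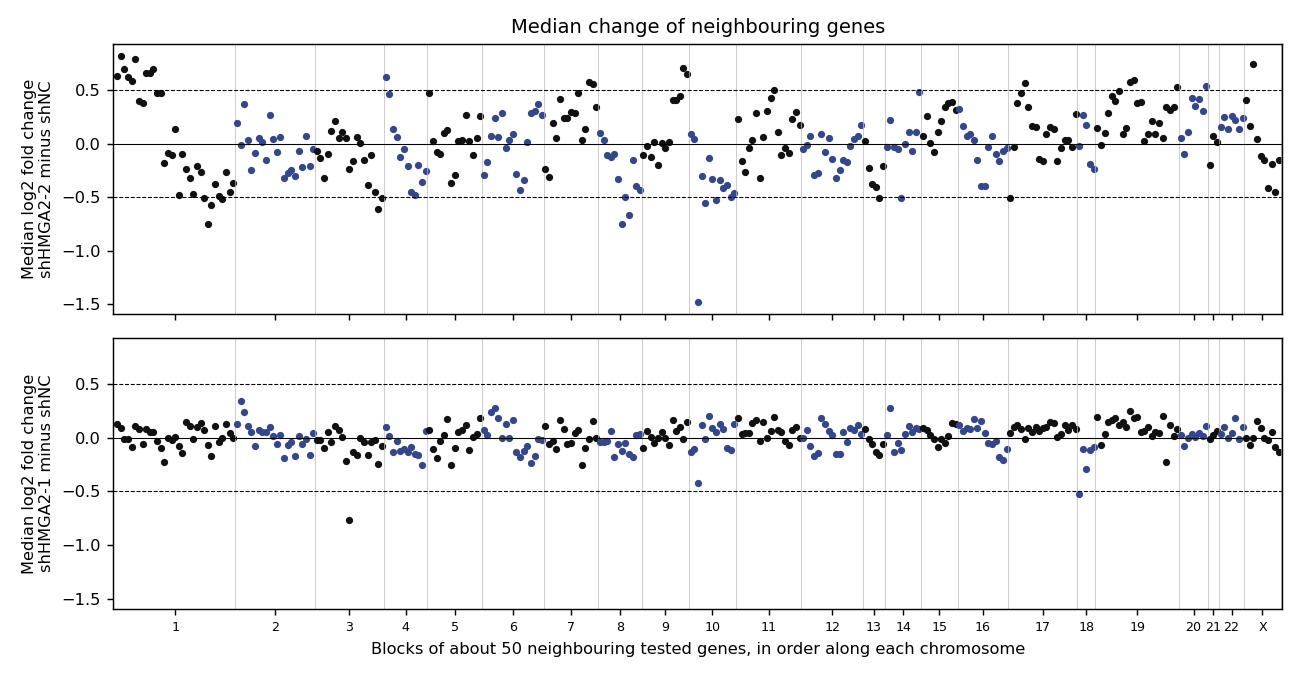
Each point is the median log2 fold change of about 50 neighbouring tested genes, in order along each chromosome, for shHMGA2-2 (upper panel) and shHMGA2-1 (lower panel) against shNC, with alternating colours for chromosomes and dashed lines at 0.5 and -0.5. The chromosome 10 block at -1.48 stands alone at the bottom of the upper panel, and the first blocks of chromosome 1 lie above 0.5.

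Called genes also differed in part from the rest in level and kind. Their median level was 9.66 CPM if called lower and 2.21 CPM if called higher, against 18.0 CPM for all tested genes. Of genes called lower 13.6% were long noncoding and of those called higher 17.5%. Whether the low level accounts for the share of noncoding genes was not tested. Long noncoding genes were called in 27.6% of 1960 cases, and protein coding genes and pseudogenes in 20.3% each. Among genes changed in shHMGA2-2 but not in shHMGA2-1, 20.5% of those that fell and 20.9% of those that rose were long noncoding, beside 12.2% of all tested genes. Genes that fell were longer, with a median span of 49.0 kb, than genes that rose (20.7 kb), and the median of all tested genes was 27.5 kb.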

How the data were processed

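RNA of 6 MDA-MB-231 libraries (2 each of shNC, shHMGA2-1 and shHMGA2-2) was sequenced after mRNA capture. The authors deposited 1 table with raw read counts and FPKM per gene. Per the labels' processing notes, tools named were HISAT2 2.2.1 and HTSeq 0.6.1 with GRCh38.p13; the strand setting of the counting is not given in the sources used here. Counts were tested with the quasi-likelihood test of edgeR 4.0.16 (R 4.3.3) in a model of all 3 groups with TMM scaling and the filter filterByExpr, with Benjamini-Hochberg adjustment, after a check on simulated data. A call required an adjusted p under 0.05 and at least 2-fold. The common biological coefficient of variation was 0.0583. DESeq2 1.42.0, limma 3.58.1 on log2(FPKM + 1), and other settings were alternatives. Libraries of shNC differed least from each other (chi-square per degree of freedom 2.06), those of shHMGA2-1 most (6.80), and none was a copy of another. Depth limits a library to about 0.18 CPM.

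Named genes were HMGA2, MMP1, MMP2, MMP9 and KAT6A; called genes with a symbol, a mean of at least 10 CPM in the higher group and no overlap, the 10 each way by fold and 8 each way by CPM difference; the 8 each way among genes changed in shHMGA2-2 but not in shHMGA2-1; and up to 4 called members per term or list. Other genes are named for their role and were chosen after their values were seen; the values of a few members are not reported here. The comparison, terms and gene lists were chosen with earlier results of these data known. Genes, GO and KEGG terms were taken as the table gives them; 20417 of its genes have no symbol. Spans of these named genes overlap other tested genes, so that their counts may include reads of these: BIRC3, C3, CCBE1, CD44, DSP, EDIL3, ERBB2, ESAM, FADS2, FDPS, FGF5, HLA-DPA1, HLA-DPB1, HMGA2, ID2, IFIT1, IFIT2, IFIT3, IL24, ITGB1, KRT8, LAMA5, LRRC61, MVK, MYH10, PSMC2, PSMD6, RSAD2, S100A4, SDC4, SEL1L3, SLC7A11, TGFB2, THBS1, THBS2, TNFAIP3, TXNRD1, UBA1, UCA1, VIM, WNT5A, ZBED10P and ZEB1. A comparison of promoter base composition was void, because 76.9% and 77.9% of called protein coding genes had a promoter in the table.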

Additional observations from a re-analysis of the deposited data

Results flagged for a closer look

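All results here were picked out because the lines differed under a test of the difference itself, the direct contrast of shHMGA2-2 with shHMGA2-1 (edgeR). Changed in shHMGA2-2 but not in shHMGA2-1 were 1156 genes. Another 79 genes were called in opposite directions in the lines, with the direct contrast called as well. Among the named genes these were CD74, with a log2 difference between the lines of 12.36, IL24 (6.85), CXCL8 (3.66), HS3ST1 (3.56), THBS1 (3.10) and INHBB (-7.33). CD74 had 0 and 1 counts in shHMGA2-1, so its fitted value depends on the fitting. HS3ST1, a heparan sulfate sulfotransferase, had 55 and 37 counts in shNC, compared with 19 and 10 in shHMGA2-1 and 147 and 198 in shHMGA2-2. All comparisons share libraries, shNC between the lines and shHMGA2-2 with the direct contrast.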

How the results depend on the processing

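HMGA2 kept its call in all alternatives run, with log2 fold changes from -2.37 to -1.72. A filter at a mean FPKM of 1 gave 1729 called genes (969 lower, 760 higher; 44.0% higher, against 54.7% in the main result) and 431 changed in shHMGA2-2 but not in shHMGA2-1 (216 and 215), since fewer genes (12036) were tested. With limma on log2(FPKM + 1), a scale that shrinks the changes of low genes, 1226 were called (606 lower, 620 higher) and 358 (139 and 219) by the second rule; 63 of 330 named genes lost their call. These settings moved the called members of 119 and 146 of 176 terms and lists by over 1.5 times, but not those of the sterol list or of GO cholesterol biosynthetic process. A test against 1.5-fold gave 842 genes lower in shHMGA2-2 but not in shHMGA2-1, and asking for under 2-fold in shHMGA2-1 in place of its p gave 709, beside 458 in the main result. The genes higher by these rules were 788 and 607, beside 698. Both settings loosen what counts as unchanged in shHMGA2-1, and why mainly the lower set grew was not tested. DESeq2 called 3046 and 1015. Upper quartile scaling moved the median of all genes from 0.03 to 0.14 on the log2 scale and called 3548 genes. Leaving out each library in turn gave 3105 to 3488 called genes and 1018 to 1249 by the second rule. No named gene reversed. The replicate block gave 3353 and 1134 and changed no named call. Same-numbered libraries correlated at -0.05 (shNC and shHMGA2-1), 0.02 (shNC and shHMGA2-2) and -0.35 (shHMGA2-1 and shHMGA2-2), so a shared number did not mark libraries that were clearly more alike. Between shHMGA2-1 and shHMGA2-2, libraries of unlike number were the more alike, and the reason was not tested. With the shHMGA2-1 numbers crossed, an alternative chosen after seeing the data, the block gave 3423 and 1133. Low genes near 3 counts limit the folds that can be given.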
